A study of Mus musculus with 54 samples.

Results

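The 10 genes described here encode enzymes of glycolysis and glycogen breakdown that have a form favoured by skeletal muscle or are abundant in it. They are Hk2, Pfkm, Pfkp, Aldoa, Eno1, Eno3, Pgam1, Pgam2, Pkm, and Pygm. They were chosen by name and found through their NCBI gene numbers, and all 10, of 17855 gene numbers listed in any table, are in each of the 27 deposited tables. Of these tables, 15 set a line against wildtype on 1 day and 12 set a day against the next within a line. RNA was sequenced from H2K myogenic progenitors, which are conditionally immortal mouse muscle precursors that fuse into myotubes after serum withdrawal. The study asked how emerin mutants that cause Emery–Dreifuss muscular dystrophy alter differentiation. Emerin is a protein of the inner nuclear membrane. Its gene, Emd, lies on the X chromosome, and EMD-/y progenitors come from male mice that lack it.

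The 6 lines were wildtype progenitors, EMD-/y progenitors, and 4 lines made from EMD-/y progenitors by lentiviral transduction. The transduced lines carried wildtype emerin (+EMD) or emerin with the mutations S54F, Q133H, or Del9599, the last a short deletion. They were pools selected in puromycin at doses that differed between lines. The transduced lines were kept in puromycin and, as far as the protocols name them, seeded more densely than wildtype and EMD-/y progenitors. For the RNA samples the higher density is given for the mutant lines, and for +EMD it is given in another differentiation assay. Emerin amount differed as well. In the study's western blot of proliferating cells, Q133H progenitors had more emerin than wildtype, and the study called the other transduced lines similar to wildtype. These differences cannot be told apart from the emerin form. RNA was taken at 0, 24, and 48 h in differentiation medium, called day 0, day 1, and day 2. Each of the 18 groups has 3 labelled replicates, for 54 samples. The protocol speaks of technical replicates and of 2 biological ones, and the labels do not say which kind a sample is. A vector-only line was not analysed here.

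The values used are the authors' normalized counts, 1 value per group in each table of 2 groups. The column sums lay between 16719491 and 21128040. A table lists between 17215 and 17876 genes. No value per sample was used, so no spread between replicates, no test, and no p-value is given, and no difference below is said to exceed the replicate spread. The 2 values of a gene with very few reads are also not plain group means. In all 27 tables, the rows whose 2 values have the lowest sums take exactly 6 sums, as 1 read in 1 of 6 libraries would give. Their log2 ratios nevertheless lay between 0.11 and 0.44 in size, and no value of 0 is listed. The ratios of these genes are thus closer to equality than 1 read in 1 group would give. For the members Pgam2 and Pygm, the value of a group also differed between tables by more than scale, as given below. Whether the ratios of genes with more reads, such as the members, were treated in the same way was not tested.

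Emd was at or above 1159 normalized counts in the wildtype groups and at or below 2.76 in all other groups. The transduced emerin is not visible in this gene's count, so Emd checks the EMD-/y background and not the transgene. The summed level of 10 myogenic markers lay between 35036 and 752842 normalized counts over all groups. Single markers differed, with Des at or above 9237 and Myod1 at or above 6008 in each group. Pax7 fell to 3.11 and Ckm to 30.7 in some groups. The sums for other cell types are over fewer markers. The summed fibroblast markers reached at most 90.9, the haematopoietic markers 109, the endothelial markers 35.5, the Schwann cell markers 24.8, and the adipocyte markers 10.8. A further feature follows the labels for most groups but not for all. It was read over 623 genes that carry the sequencing provider's own identifiers in place of NCBI numbers. Most groups, with all those of wildtype, were most alike to a group of the same line or the same day. The exceptions were EMD-/y day 1, most alike to S54F day 0 (r = 0.87), and EMD-/y day 0, to Q133H day 1 (r = 0.90). S54F day 1 and Del9599 day 2 were most alike to each other (r = 0.94). The labels name no batch, and the part of this feature in the results was not tested.

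Glycolysis turns glucose into pyruvate, and glycogen phosphorylase frees glucose units from stored glycogen to feed it. Many steps can be run by several isoenzymes from separate genes. During muscle differentiation, the phosphofructokinase, enolase, phosphoglycerate mutase, and glycogen phosphorylase of precursor cells give way in part to muscle forms. Loss of the muscle form of glycogen phosphorylase, phosphofructokinase, or phosphoglycerate mutase causes human glycogen storage myopathies with exercise intolerance.

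The promoters of Pgam2, Pygm, and Eno3 are shown as examples of muscle forms that differed between lines and days, a choice made after their values were seen. Pfkm, another such form, is not shown. Each sequence is the 250 bases before a start in a RefSeq promoter table on build GRCm38.p6, read 5′ to 3′ on the gene's strand, and capitals mark the E-box CAGCTG, a motif bound by MyoD-family factors. Pgam2 lies on the minus strand at chr11:5803797-5804046, Pygm on the plus strand at chr19:6384158-6384407, and Eno3 on the plus strand at chr11:70656926-70657175. The first windows of Pgam2 and Pygm adjoin the 5′ end of the gene span given below, while that of Eno3 lies inside its gene span. The Eno3 span begins further upstream, and its first bases were not examined.
Pgam2: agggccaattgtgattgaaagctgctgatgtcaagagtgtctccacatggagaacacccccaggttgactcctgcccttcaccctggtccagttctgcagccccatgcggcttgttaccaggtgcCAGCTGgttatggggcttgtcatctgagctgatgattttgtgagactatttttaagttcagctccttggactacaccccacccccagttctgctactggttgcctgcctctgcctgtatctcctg
Pygm: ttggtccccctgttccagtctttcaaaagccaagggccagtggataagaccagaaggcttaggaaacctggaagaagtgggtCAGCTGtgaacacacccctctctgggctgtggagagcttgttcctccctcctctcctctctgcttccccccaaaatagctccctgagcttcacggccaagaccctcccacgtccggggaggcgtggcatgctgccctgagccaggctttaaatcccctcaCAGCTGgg
Eno3: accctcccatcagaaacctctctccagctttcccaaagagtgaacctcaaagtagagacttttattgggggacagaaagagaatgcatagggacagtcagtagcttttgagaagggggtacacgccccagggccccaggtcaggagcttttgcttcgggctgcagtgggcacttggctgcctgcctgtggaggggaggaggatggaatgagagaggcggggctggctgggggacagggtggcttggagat

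The Pygm window holds the E-box at 168 and at 8 bases before the start, the Pgam2 window holds it at 125 bases, and the Eno3 window, before an internal start, does not hold these letters. The motif reads the same on both strands. Among the first windows of 10 members, 3 hold it, and the third belongs to Pkm. Of 27025 genes, 12.8% hold it in a window of the same length. By the GENCODE annotation, 9 bases of the Pygm window and 208 of the Pkm window lie in an exon of the same gene. The Pgam2 window holds none. The Pygm match at 8 bases before the start lies within the last 9 bases of its window. Where the exon bases lie within a window was not examined, so which matches fall in them is not stated. The letters CTANNNNTAG of a MEF2 type site are in none of the 10 first windows and in 3.23% of all genes. The letters ACGTG of a hypoxia response type site, on either strand, are in 4 of the 10, namely Hk2, Pfkm, Pgam1, and Pygm, and in 16.6% of all genes. A match in letters describes the sequence and does not show that a factor binds there.

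Levels are given below as normalized counts after the scale differences between tables were removed, since each table was normalized separately. For 8 of the members, a group's level varied between tables by at most 4.92%. For Pgam2 it varied by up to 97.1%, in Q133H progenitors at day 1, and for Pygm by up to 23.1%, in EMD-/y progenitors at day 0. Per kilobase of transcript, Pkm stood between 13384 and 21405, Eno1 between 11846 and 22148, and Aldoa between 8124 and 53041. Pfkp, at 49.4 to 172, and Hk2, at 79.1 to 349, were far lower. Together the 10 genes took between 0.541% and 0.968% of all normalized counts.

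**Figure D1:**
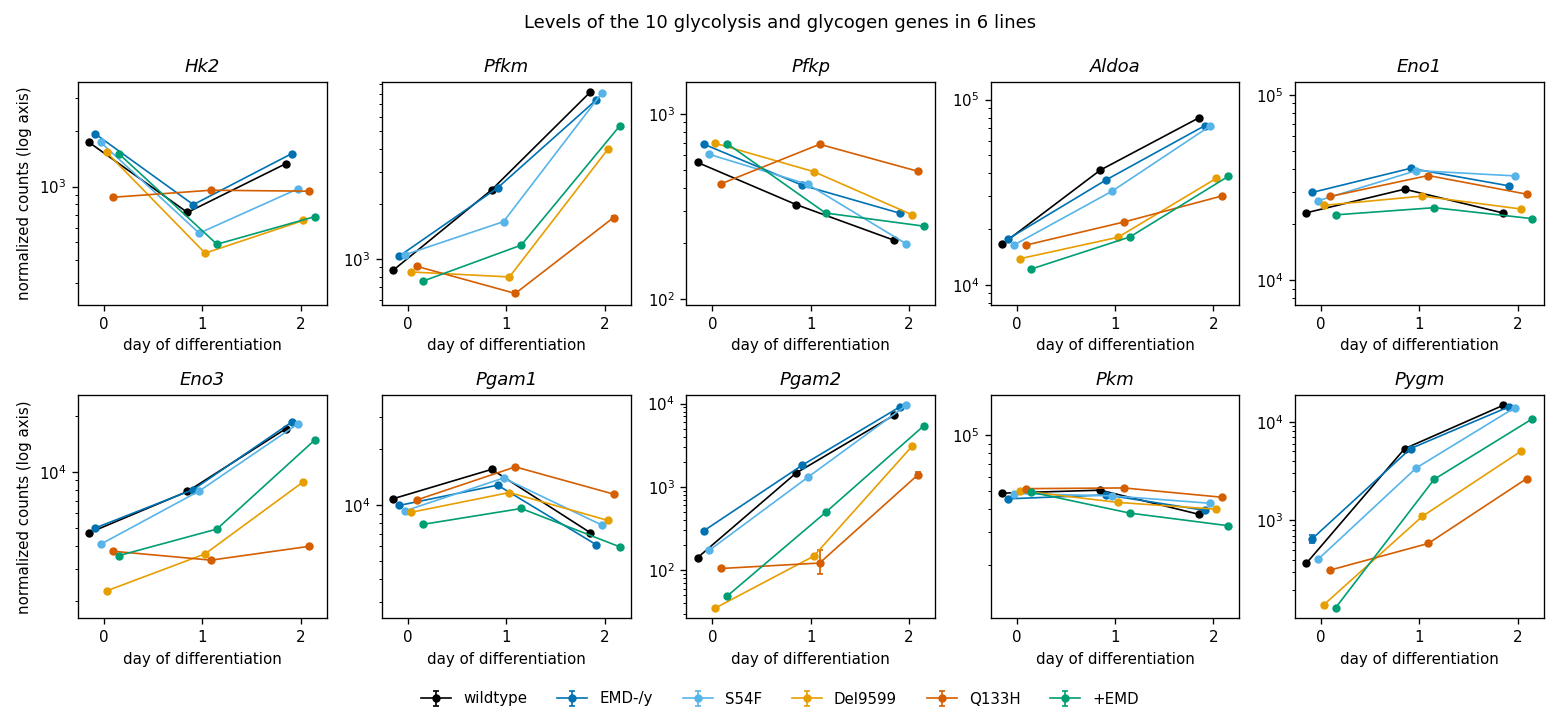
Levels of the 10 genes (y, normalized counts, log axis) at days 0, 1, and 2 (x) in the 6 lines. Points are means over the tables that list a group, and bars span the lowest and highest table, not replicates. Pgam2 and Pygm climb in every line by day 2, and Q133H (red-orange) is flat for Hk2 and Eno3.

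Progenitors of most lines had much more muscle-form transcript after differentiation began, and the 2 genes with the widest ranges were Pygm and Pgam2. Pygm, muscle glycogen phosphorylase, stood at 367 normalized counts in wildtype progenitors at day 0, 5332 at day 1, and 14626 at day 2. Pgam2, the muscle phosphoglycerate mutase, stood at 141, 1462, and 7284. Within the wildtype tables, the first day brought a 14.4-fold higher value for Pygm and a 10.2-fold higher value for Pgam2, and the second day a further 2.73-fold and 4.96-fold. Hk2, a hexokinase of muscle that phosphorylates incoming glucose, was 2.38-fold lower at day 1 than at day 0.

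Between day 0 and day 1, a member was called when its 2 values differed at least 2-fold and the higher one was at least 10. All 10 members passed this minimum in every table. In wildtype progenitors 5 of 10 members were called, against 23.3% of all genes that passed the minimum. In EMD-/y the count was 5 of 10 against 21.9%, and in +EMD 4 of 10 against 17.8%. S54F had 3 of 10 against 17.1%, Del9599 3 of 10 against 14.5%, and Q133H 0 of 10 against 12.6%. The median log2 ratio of the 10 members over this interval was 0.63 in wildtype, 0.55 in EMD-/y, 0.59 in S54F, 0.27 in Del9599, 0.27 in Q133H, and 0.37 in +EMD. That of all genes lay within 0.02 of 0 in each of these tables.

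Pygm was higher at day 1 in all 6 lines. Its log2 ratio was 4.29 in +EMD, 3.85 in wildtype, 3.07 in S54F, 2.87 in EMD-/y, 2.84 in Del9599, and 0.86 in Q133H. Pgam2 was called higher in 5 lines, at 3.36 in wildtype, 3.30 in +EMD, 2.89 in S54F, 2.55 in EMD-/y, and 2.02 in Del9599. In Q133H its log2 ratio was -0.21 in the table of both days, while the levels averaged over tables had the opposite order, 104 at day 0 and 121 at day 1. The table range at day 1 in Q133H, 89.5 to 176, spans both.

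Pfkm, the muscle subunit of phosphofructokinase, which controls the pace of glycolysis, had log2 ratios from day 0 to day 1 of 1.45 in wildtype, 1.22 in EMD-/y, 0.64 in +EMD, and 0.59 in S54F. Its ratio was -0.50 in Q133H and -0.08 in Del9599. Over days 0, 1, and 2 its levels were 869.8, 2389, and 8144 in wildtype, 1056, 1599.7, and 8059.7 in S54F, 849.6, 798, and 3970.1 in Del9599, and 912, 649, and 1686 in Q133H. The lines lay close together at day 0 and were spread widely by day 2. Aldoa, the aldolase of muscle and many other cells, was higher at day 1 in all 6 lines, and past 2-fold only in wildtype (1.32) and EMD-/y (1.05). Eno3, the muscle enolase, was below 2-fold in all 6 lines, with log2 ratios from -0.15 in Q133H to 0.94 in S54F. Its levels over the 3 days were 4688, 7847, and 17099 in wildtype, 2282, 3612, and 8861 in Del9599, 3734, 3341, and 3969 in Q133H, and 3532, 4918, and 14962 in +EMD. EMD-/y and S54F ended at 18588 and 18125.

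Hk2 was lower at day 1 than at day 0 in every line except Q133H. It had 1732 normalized counts at day 0 and 725 at day 1 in wildtype, and its log2 ratio lay between -1.25 and -1.79 in the 5 lines other than Q133H. In Q133H it was 0.14, from 875 to 955, and this line had the lowest Hk2 level at day 0 and the highest at day 1. Pfkp, the platelet-type phosphofructokinase found in precursor cells, followed a similar order. Its log2 ratios lay between -0.49 and -1.25 in 5 lines and at 0.72 in Q133H.

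Between day 1 and day 2 the called members numbered 5 of 10 in wildtype against 20.3% of all genes, 5 of 10 in EMD-/y against 19.2%, and 6 of 10 in S54F against 21%. They numbered 5 of 10 in Del9599 against 14.7%, 3 of 10 in Q133H against 11.1%, and 5 of 10 in +EMD against 21.1%. Pfkm, Pgam2, and Pygm were called higher in all 6 lines. Their log2 ratios lay between 1.30 and 2.33 for Pfkm, 2.31 and 4.34 for Pgam2, and 1.39 and 2.10 for Pygm. The highest Pgam2 ratio was that of Del9599, 147 to 3078 normalized counts, and the lowest was that of wildtype. The median log2 ratio of the 10 members lay between 0.79 and 0.98 in 5 lines and at 0.10 in Q133H, and that of all genes within 0.02 of 0 in each table.

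Eno3 was called higher over this interval in 5 lines, with log2 ratios between 1.12 and 1.61. In Q133H its ratio was 0.23, with 3341 normalized counts at day 1 and 3969 at day 2. Aldoa was called in S54F (1.17), Del9599 (1.06), and +EMD (1.09), lay just under the threshold in wildtype (0.93) and EMD-/y (0.96), and was at 0.45 in Q133H. Pgam1, the phosphoglycerate mutase of most tissues, was lower at day 2 in all 6 lines, by 1.13 on the log2 scale in wildtype and 1.06 in EMD-/y, and by less than 1 in the other lines. Pfkp was called lower over this interval in S54F, at -1.06. Hk2 was higher at day 2 in 5 lines, below 2-fold in each, with log2 ratios between 0.50 and 0.91, and was at -0.02 in Q133H. Pkm, the pyruvate kinase gene whose splice forms these values do not separate, was the steadiest member. Its log2 ratios lay between -0.43 and 0.07 over both intervals and all 6 lines.

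**Figure D2:**
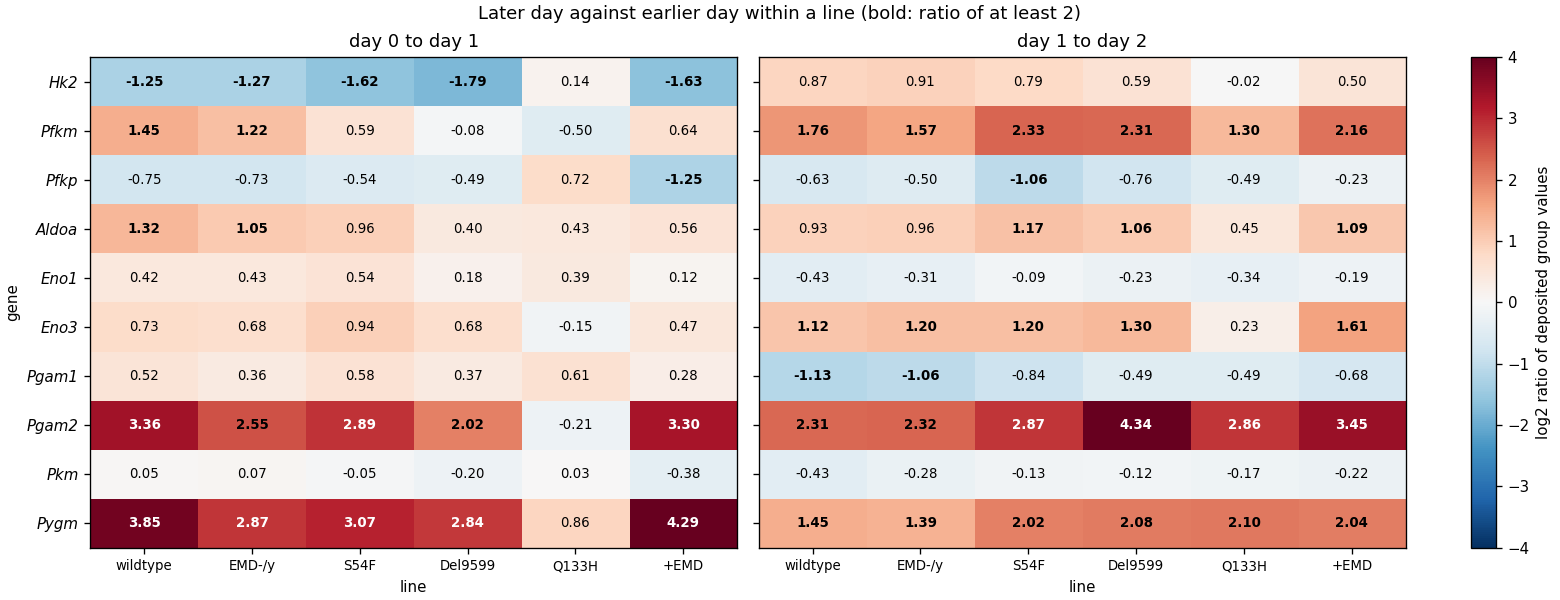
Log2 ratio of the later to the earlier day (color and number) for the 10 genes (rows) in the 6 lines (columns), from day 0 to day 1 (left) and from day 1 to day 2 (right). Bold numbers are ratios of at least 2-fold. In the Q133H column no number of the left panel is bold, and Pfkm, Pgam2, and Pygm are bold in the right panel.

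Against wildtype of the same day, called members were found in Del9599, Q133H, and +EMD, and all but Pfkp in Q133H were lower. All comparisons on a day share the same wildtype samples. EMD-/y and S54F progenitors had 0 of 10 members called on each day. The background was 9.12% of all genes at day 0, 7.68% at day 1, and 7.98% at day 2 in EMD-/y, and 12.3%, 12.5%, and 11.1% in S54F, so that a count of 0 among 10 genes is near the background. The largest differences in EMD-/y were at day 0, with Pgam2 at 293 normalized counts against 149 in wildtype, 1.96-fold higher, and Pygm at 602 against 393. For Pgam2 the same ratio taken through other tables was past 2-fold, at 1.10 on the log2 scale. In S54F the largest were Eno1 at day 2, 1.58-fold higher, and Pygm at day 1, 1.56-fold lower.

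Del9599 progenitors had called members on all 3 days. Called members, all lower, numbered 3 of 10 at day 0 against 12.7% of all genes, 5 of 10 at day 1 against 21.3%, and 5 of 10 at day 2 against 22.5%. At day 0 these were Pgam2 with 36.3 normalized counts against 145 in wildtype, Pygm with 143 against 377, and Eno3 with 2397 against 4860. At day 1 Pgam2 was 9.98-fold lower, Pygm 4.82-fold, Aldoa 2.31-fold, and Eno3 2.18-fold, and Pfkm had 838 normalized counts against 2518. At day 2 Pygm was 2.89-fold lower, Pgam2 2.37-fold, Aldoa 2.12-fold, Pfkm 2.06-fold, and Hk2 2.03-fold. Hk2 was just short of the 2-fold limit, at -0.996 on the log2 scale, when ratios were centred on the median gene. The median log2 ratio of the 10 members was -0.20, -0.93, and -0.99 on the 3 days, with that of all genes within 0.02 of 0 in every table against wildtype.

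In Q133H progenitors at day 0 none of the 10 members was called, against 15.1% of all genes, and Hk2 was closest to the limit, with 914 normalized counts against 1792. At day 1, 5 of 10 were called against 24.6%, and at day 2, 6 of 10 against 33.9%. At day 1 Pgam2 stood at 103 normalized counts against 1532 in wildtype, 14.8-fold lower. On the common scale its level in this group ranged from 89.5 to 176 between tables, so this fold depends on the table. Pygm stood at 608 against 5623, 9.24-fold lower. Pfkm was 3.76-fold lower and Eno3 2.37-fold lower, while Pfkp was 2.10-fold higher.

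At day 2 Q133H had Pygm 5.43-fold, Pgam2 4.74-fold, Pfkm 4.71-fold, Eno3 4.26-fold, and Aldoa 2.61-fold below wildtype, and Pfkp 2.36-fold above it. The Pgam2 value depends on the table. The ratio read through the 3 tables that connect these groups by way of day 1 was -3.32 on the log2 scale, against -2.24 in the table of the comparison itself. Pfkm and Eno3 differed by at most 0.12 between both routes in every comparison. The median log2 ratio of the 10 members in Q133H was -0.11, -0.46, and -0.94 on the 3 days.

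In +EMD progenitors, which carry wildtype emerin, called members, all lower, numbered 2 of 10 at day 0 against 17.3% of all genes, 3 of 10 at day 1 against 20.1%, and 1 of 10 at day 2 against 18.8%. These counts lie near the background, and the values below describe single genes. Pgam2 stood at 48.9 normalized counts against 142 at day 0 and at 507 against 1500 at day 1, while at day 2 it was 1.35-fold lower. Pygm was 2.80-fold, 2.04-fold, and 1.37-fold lower on the 3 days. Aldoa was 2.28-fold lower at day 1 and 2.07-fold lower at day 2. Pfkm was 2.00-fold lower at day 1, just short of the limit at -0.998 on the log2 scale. The median over the 10 members was -0.31, -0.68, and -0.34.

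Set side by side with its EMD-/y parent, the +EMD line had less of the muscle forms. Pgam2 had 48.7, 491, and 5422 normalized counts on the 3 days in +EMD and 295, 1809, and 9189.7 in EMD-/y. Pygm had 131, 2609, and 10720.3 in +EMD and 653, 5343, and 14159.6 in EMD-/y. No table compares these lines directly, and the values rest on the common scale described above.

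**Figure D3:**
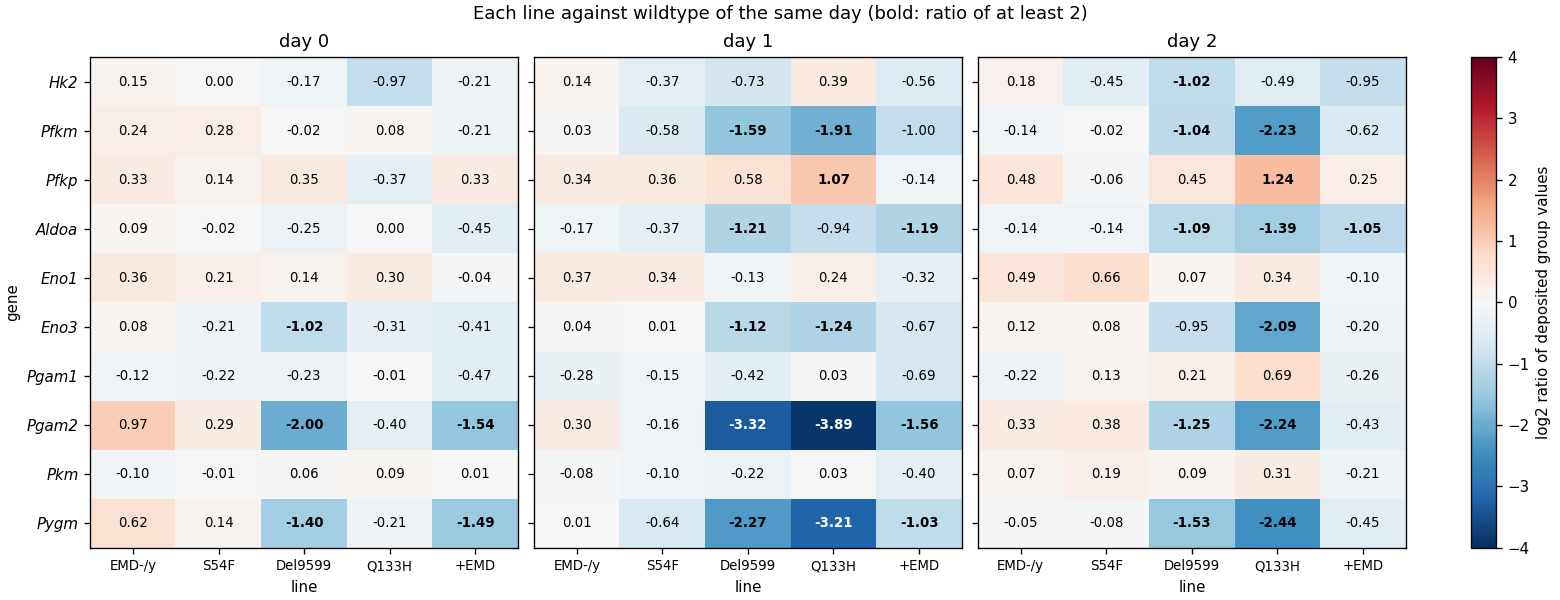
Log2 ratio of each line to wildtype (color and number) for the 10 genes (rows) and 5 lines (columns) at days 0, 1, and 2. Bold numbers are ratios of at least 2-fold. Bold values lie in the Del9599, Q133H, and +EMD columns, and of these only Pfkp in Q133H is positive.

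Markers of the differentiated state differed between the lines as well. At day 1 the log2 ratio of Ckm, muscle creatine kinase, to wildtype was -6.93 in Q133H, -4.81 in Del9599, and -2.33 in +EMD, beside -0.32 in S54F and 0.25 in EMD-/y. Myog, which encodes the transcription factor myogenin, had log2 ratios of -3.73 in Q133H, -1.89 in Del9599, and -0.42 in +EMD. Embryonic myosin heavy chain, Myh3, had ratios of -5.17, -4.15, and -2.46 in the same 3 lines, and of -1.11 in S54F, where no member was called. At day 0 Ckm was at -2.30 in Q133H, with 0 members called, at -1.80 in Del9599, and at -0.86 in +EMD. It was at 0.55 in S54F and at 1.10 in EMD-/y. The markers did not move together on that day. Myog was at -0.49 in Q133H, -0.27 in Del9599, 0.29 in +EMD, -0.02 in S54F, and 0.61 in EMD-/y. Myh3 was at -0.23, -1.28, -2.07, 0.12, and 0.75 in the same order. At day 2 Ckm was at -3.11 in Q133H, -1.64 in Del9599, -0.99 in +EMD, -0.02 in S54F, and -0.13 in EMD-/y. In that order Myog was at -1.27, -0.32, -0.10, -0.13, and -0.17, and Myh3 at -3.67, -1.84, -1.13, -0.28, and 0.09. Over the 18 groups, Pearson's r with Ckm was 0.96 for Pgam2, 0.94 for Pfkm, 0.93 for Eno3, 0.92 for Pygm, and 0.90 for Aldoa. It was -0.81 for Pfkp, -0.64 for Pkm, -0.44 for Pgam1, 0.12 for Eno1, and -0.10 for Hk2. The groups share lines, days, and tables, so these are descriptions. In bulk RNA, fewer differentiated cells and less transcript per cell cannot be told apart, and the part of the markers in the results was not tested.

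The balance of isoenzymes at 1 step can be read within a single group, because library size cancels. For phosphoglycerate mutase, Pgam2 made up 2.59% of Pgam1 plus Pgam2 per transcript length in wildtype at day 0, 16.1% at day 1, and 67.7% at day 2. EMD-/y ended at 75.4%, S54F at 71.4%, and +EMD at 65.0%. Del9599 stood at 0.776%, 2.50%, and 43.2% on the 3 days. Q133H stood at 1.96%, 1.45%, and 19.9%, with a table range of 1.12% to 2.19% at day 1 and 18.6% to 21.2% at day 2.

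For phosphofructokinase, Pfkm made up 69.0% of Pfkm plus Pfkp in wildtype at day 0 and 98.2% at day 2. It passed 95% at day 2 in every line except Q133H, where it was 75.3%, 57.0%, and 82.8% on the 3 days. The liver form, Pfkl, is left out of this pair, so these are not shares of all phosphofructokinase transcript. In the day 2 comparison of Q133H with wildtype, Q133H had 3000 normalized counts of Pfkl beside 1671 of Pfkm. Wildtype had 1345 of Pfkl beside 7864 of Pfkm. For glycogen phosphorylase, Pygm was set against Pygb, the brain form. Its share was 30.8% in wildtype at day 0, 88.4% at day 1, and 97.9% at day 2. Del9599 stood at 14.1%, 51.9%, and 90.0%, and Q133H at 25.7%, 34.8%, and 76.9%.

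For enolase, Eno3 made up 19.5%, 23.2%, and 46.9% of Eno1 plus Eno3 in wildtype. With the Eno1 copy Eno1b, described below, added to Eno1, the wildtype shares were 16.9%, 20.2%, and 43.1%. At day 2 +EMD stood at 45.3%, which is below the first wildtype value and above the second, so the order of these lines depends on the copy. EMD-/y stood at 40.7%, S54F at 37.1%, and Del9599 at 30.3%, below both wildtype values. In Q133H the share was 13.6%, 9.78%, and 14.0%, so this pair had the same balance at day 2 as at day 0. The log2 ratio of Eno3 to Eno1 changed by 0.05 from day 0 to day 2 in Q133H and by 1.71 to 2.15 in the other 5 lines.

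**Figure D4:**
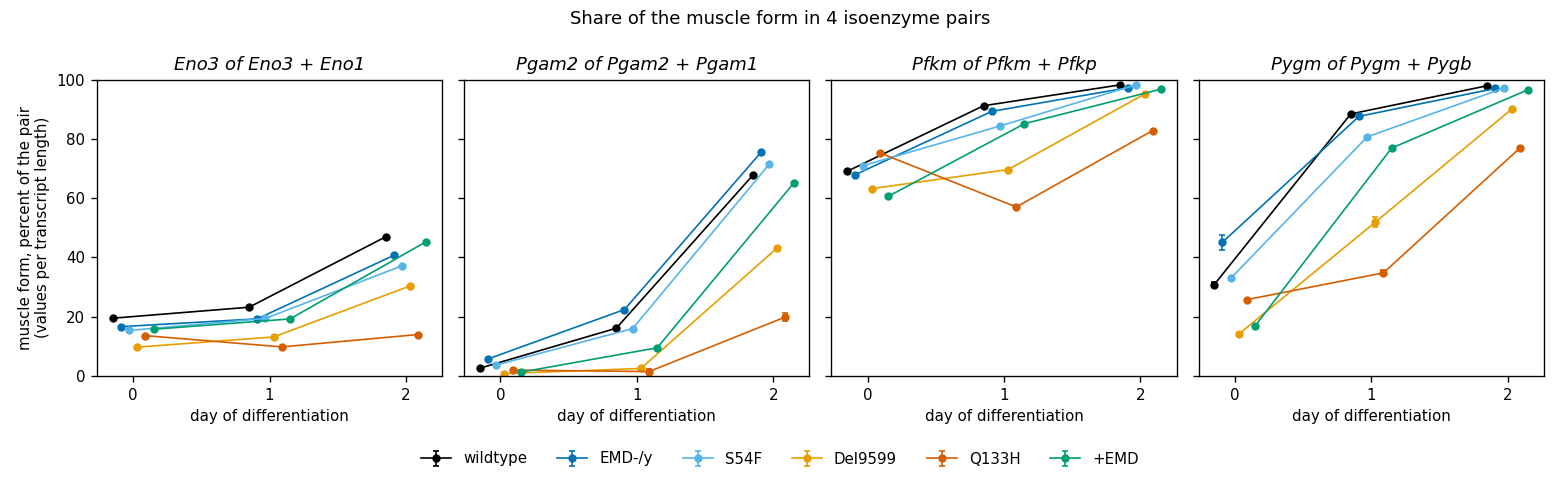
Share of the muscle form in each isoenzyme pair (y, percent of both forms, per transcript length) at days 0, 1, and 2 (x) in the 6 lines. Bars span the tables that list a group. At day 2 Q133H is the lowest line in all 4 panels and Del9599 the next lowest, with Eno3 at 14.0% and 30.3%.

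Eno1, the enolase of most tissues, needs its near-identical copy to be read. Eno1b shares 27.7% of the 31-base words of Eno1 transcripts, and reads from such stretches can be assigned to either gene. Eno1b was listed at 3789 to 5896 normalized counts in wildtype groups and at 11.9 to 56.9 in all other groups. It thus made up 14.1% to 16.0% of the sum of both genes in wildtype and at most 0.143% elsewhere. Eno1 alone was above wildtype in 4, 3, and 4 of 5 lines on days 0, 1, and 2, with log2 ratios up to 0.66 in S54F at day 2. The sum of Eno1 and Eno1b was above wildtype in 2, 2, and 3 of 5 lines, and its largest ratio was 0.44. Summing was chosen after these values were seen. In S54F and Del9599 at day 0, Q133H at day 1, and Del9599 at day 2 the sign turned. The changes between days kept their sign in all 12 tables.

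**Figure D5:**
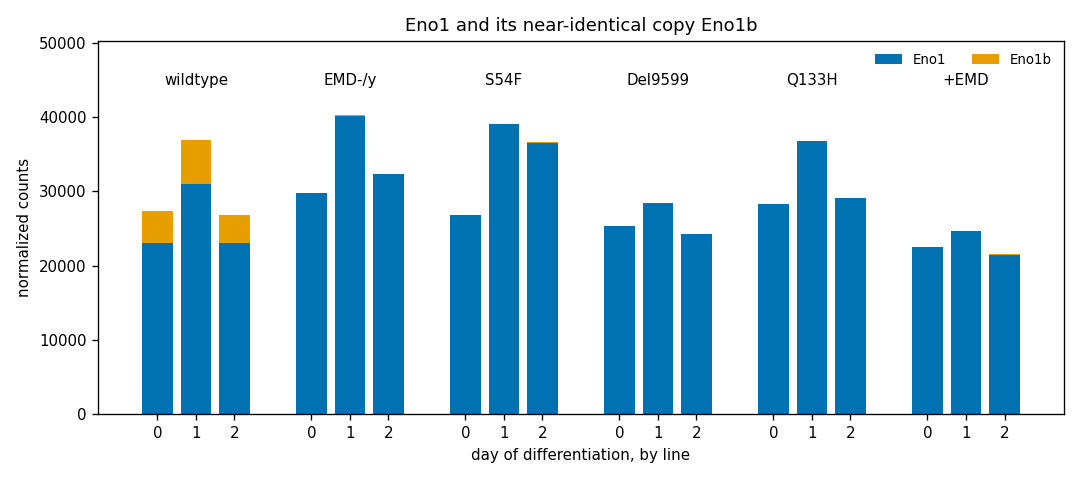
Normalized counts (y, from 0) of Eno1 (blue) and Eno1b (orange, stacked) at days 0, 1, and 2 (x) in the 6 lines. Eno1b is visible as a block of 3789 to 5896 in wildtype and nearly absent in the other lines.

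Other members were searched for such copies in the same way. Other annotated genes found to share words with Eno1, Pgam1, or Pkm and having an NCBI number are not listed in the tables. Gm26513, which shares words with Pfkm, and Gm49759, which shares words with Pkm, had no such number and could not be looked up. Aldoart1, which shares 5.34% of the words of Aldoa, was listed at no more than 0.494. Pitrm1, the neighbour of Pfkp, shares 5.28% of the words of Pfkp and stood at 1499 to 3098 normalized counts, above Pfkp itself. Where genes overlap on the genome, the counts of either may hold reads of the other, since the library preparation described does not mark strand. This applies to Eno3 and Pfn1, to Pfkm and Senp1, to Pfkp with Pitrm1 and Gm35730, and to Pkm and LOC115487221.

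On mm10, the build the authors mapped to, which is GRCm38, Hk2 lies on chromosome 6 at 82725025 to 82774454. Pfkm lies on chromosome 15 at 98092589 to 98132447, Pfkp on chromosome 13 at 6579874 to 6649060, and Aldoa on chromosome 7 at 126795234 to 126800994. Eno1 lies on chromosome 4 at 150236708 to 150248879, and Pkm on chromosome 9 at 59656576 to 59679372. Eno3 and Pgam2 are both on chromosome 11, at 70653125 to 70662513 and 5801637 to 5803796. Pgam1 and Pygm are both on chromosome 19, at 41911871 to 41918665 and 6384408 to 6398464. The tables count whole genes, so exons and splice forms were not resolved.

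A wider list of 49 genes of glucose entry, glycolysis, pyruvate and lactate, and glycogen gives the setting. Against wildtype, 23 of 198 gene and line pairs that passed the minimum were called at day 0 (20 higher, 3 lower). At day 1 it was 39 of 204 (12 higher, 27 lower), and at day 2 54 of 212 (28 higher, 26 lower). These are shares of 11.6%, 19.1%, and 25.5%, within the 9.12% to 17.3%, 7.68% to 24.6%, and 7.98% to 33.9% of all genes in the tables of these days. From day 0 to day 1, 53 pairs were called higher and 13 lower of 242. From day 1 to day 2, 55 were called higher and 25 lower of 251. These shares, 27.3% and 31.9%, stand beside 12.6% to 23.3% and 11.1% to 21.1% of all genes. In that second interval the glycogen genes contributed 40 higher and 5 lower calls of 96, and the genes of upper glycolysis 0 higher and 13 lower of 47.

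Among glucose transporters, Slc2a4, the insulin-responsive GLUT4, was low in the same lines at day 2. It stood at 979 normalized counts in wildtype and 35.4 in Q133H, 27.7-fold lower, and it was 9.43-fold lower in Del9599 and 2.77-fold lower in +EMD. Slc2a3, the high-affinity GLUT3, was lower at day 1 than at day 0 in all 6 lines, by 1.24 to 1.92 on the log2 scale. Among glycogen genes, Ppp1r3a, which targets protein phosphatase 1 to muscle glycogen, had 1.90 normalized counts in Del9599, 2.34 in Q133H, and 1.19 in +EMD at day 1, where wildtype had 82.7 to 85.2 in the same tables. EMD-/y had 137 and S54F 76.4. At day 2 the +EMD line still had 10.3 normalized counts of Ppp1r3a against 436 in wildtype. Its relative Ppp1r3c was higher than wildtype in all 5 lines at day 2, by 1.95-fold to 9.23-fold, over wildtype values of 9.46 to 11.1. Stbd1, which anchors glycogen to membranes, was higher at day 2 than at day 1 in all 6 lines, past 2-fold in 5.

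Among genes of pyruvate and lactate, Ldhb, the heart-type lactate dehydrogenase, was 2.62-fold to 8.66-fold above wildtype at day 0 in the 4 lines other than +EMD, where it was 1.40-fold lower. From day 0 to day 1 Ldhb was called higher in all 6 lines, with log2 ratios between 1.28 and 3.05. Slc16a3, the lactate exporter MCT4, was called higher over the same interval in 5 lines and was at 0.80 in Del9599. Pdk4, a kinase that restrains pyruvate dehydrogenase, was below wildtype in all 5 lines at day 0, called in Del9599 (3.54-fold) and +EMD (6.24-fold). Pdha1, a subunit of that dehydrogenase, was 1.34-fold to 1.54-fold below wildtype in the same 5 comparisons.

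Of the isoenzyme partners, Pfkl, the liver form of phosphofructokinase, was called higher from day 0 to day 1 in all 6 lines, with log2 ratios between 1.21 and 1.83, and had ratios from -0.28 to -1.51 over the next day. Q133H thus had 4032 normalized counts of Pfkl at day 1, beside 649 of Pfkm. Hk1 was not called in any comparison, with log2 ratios between 0.63 and 0.73 from day 0 to day 1. Aldoc was called higher from day 0 to day 1 in the 5 lines that passed the minimum. Eno2, the neuronal enolase, was called higher in 5 of 6 lines over that interval, at 57.0 to 378 normalized counts over all groups. Pygb was called against wildtype only in Q133H at day 2, where it was 1.36 higher on the log2 scale. Pygl, the liver form, was called higher than wildtype in 4 of 5 lines at day 1, at levels of up to 46.6 normalized counts. Pfkfb1, which makes a regulator of phosphofructokinase, was called lower at day 2 than at day 1 in all 6 lines.

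Gapdh, the dehydrogenase between aldolase and phosphoglycerate mutase, had the highest median ratio to wildtype of the list at day 0, and its pattern was unlike that of the members. It was above wildtype by 2.20 to 4.17 on the log2 scale in all 5 lines at day 0. In EMD-/y it went from 6859 normalized counts at day 0 to 36855 at day 1, while in S54F it went from 24544 to 8566. The 5 groups with the highest Gapdh were EMD-/y at day 1 and the transduced lines at day 0. Over the genes with the provider's own identifiers, EMD-/y at day 1 was likewise most alike to a transduced line at day 0, S54F (r = 0.87). The part of that feature in the Gapdh values was not tested. Transcripts of many other annotated genes share words with Gapdh, and none of those genes was found listed by NCBI number, so its values are uncertain.

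The genes most alike to the members over the 18 groups were sought among 13393 genes. For Pgam2 these were Klhl40, a stabilizer of muscle thin filaments (r = 0.99), Fn3k (r = 0.99), and Bin1, which shapes T-tubules (r = 0.99). For Pygm they were Zfp438, Chrnd, the delta subunit of the acetylcholine receptor, and P2rx5, each with r = 0.98. For Pfkm they were Mief2, Flnc, which encodes filamin C, and Ehbp1l1, each with r = 0.99. For Eno3 they were Ascl5, Rnf7, and Mcu, the mitochondrial calcium uniporter, each with r = 0.98, although Ascl5 reached only 27.6 normalized counts. For Hk2 the closest were lower, Dym (r = 0.89), Atxn1 (r = 0.88), and Gm12185 (r = 0.88).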

How the data were processed

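RNA of 54 samples was prepared by poly-A selection, sequenced on the DNBseq platform, filtered with SOAPnuke, and mapped to mm10 with HISAT2 by the authors' provider, who compared pairs of groups with DESeq2. Versions and the annotation are not given in the sources used here. Each deposited table gives, per gene, a length and the authors' signal for 2 groups, in normalized counts. It also holds the authors' fold changes, p-values, and calls, which were not used. Columns with values of single samples that were left unused numbered 0, and the depth of a sample is not known from these tables.

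Log2 ratios of both values were computed within a table. A gene was called at a ratio of at least 2 when the higher value was at least 10. Table offsets were fitted by least squares over 8734 genes with values of at least 100 and removed from levels. Gene numbers were matched to RefSeq symbols (GRCm38.p6), and copies were sought with 31-base words in GENCODE vM21 transcripts. The members, lists, and named genes (members, isoenzyme partners, the 2 highest and 2 lowest pathway genes per family of comparisons, and the 3 genes most alike to 5 members) were chosen with earlier results of these data known. Functions were tested on simulated data. Python 3.11.15, numpy 2.4.6, pandas 2.3.3, and matplotlib 3.10.9 were used.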

Additional observations from a re-analysis of the deposited data

How the results depend on the processing

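No paired analysis was possible because only 1 value per group was used, and for the same reason no replicate could be left out. Lowering the ratio limit to 1.5 moved the called members from 5 to 8 at day 0 and from 20 to 32 from day 0 to day 1, and the called pathway pairs from 262 to 488. A pseudocount of 1, a minimum of 100 or none, and centring on the median gene kept all of these counts within 1.5 times. With Spearman's rank correlation, 1 of the 3 genes most alike to Hk2, 0 for Pfkm, 0 for Eno3, 1 for Pgam2, and 1 for Pygm remained among the top 3. Reading ratios through 3 other tables and summing Eno1 with Eno1b were chosen after seeing the data. The first moved 2 of 270 member ratios across the 2-fold limit and turned the sign of 1, Pygm in EMD-/y at day 1 (0.01 to -0.37), with a largest shift of 1.07, in Pgam2 of Q133H. The second turned 4 of 27 Eno1 ratios. Depth per sample is unknown here.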
